A study of Mus musculus with 12 samples.

Results

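A set of 6 genes that mark oligodendroglia on their way from precursor to myelinating cell were followed in cultured mouse oligodendrocyte precursor cells (OPCs) exposed to a glucocorticoid or to interferon gamma. The members were taken as a list of names, Enpp6, Bcas1, Itpr2, Fyn, Tns3 and Sirt2, and all 6 were found once among the 55536 genes of the series and passed the filter on low counts with 17919 genes in all. OPCs came from pooled brains of P4-P6 pups and were isolated either as Sox10-GFP+ cells by FACS or with CD140a beads by MACS, and which library had which isolation is not given in the sources used here. The mice carry Sox10:Cre, active across the oligodendrocyte lineage, and an RCE:LoxP EGFP reporter, and all cultures were kept in PDGFaa and bFGF, factors that hold OPCs in a dividing state. The label "EAE", the mouse model of multiple sclerosis, stands on every sample although the cells are cultures from pups.

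Ctr cultures were untreated, Dexa cultures received 1 µM dexamethasone for 48 h, and IFNg cultures were kept for the same 48 h with the cytokine IFN-gamma at 100 ng/ml. Each group has 4 libraries of total RNA from different litters. The table of Dexa replicate 3 breaks off after 33.7% of the transcripts and lists only Fyn and Tns3 of the members whole, so that fits over all genes hold 4 Ctr, 3 Dexa and 4 IFNg libraries. The complete libraries hold 19209063 to 52074652 estimated reads. Of 6 treatment check genes, the 3 interferon targets were called higher in IFNg vs Ctr and the 3 glucocorticoid targets higher in Dexa vs Ctr. Irf1, an interferon-induced transcription factor, averaged 4.10 TPM (the deposited level, scaled by transcript length and library total) in Ctr and 276 in IFNg, and Fkbp5, a glucocorticoid receptor target, averaged 9.98 TPM in Ctr and 26.8 in Dexa. Of the 11 microglial markers, 10 stayed under 1 TPM in every complete library.

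OPCs that leave the cell cycle pass through a committed, premyelinating stage before they wrap axons. They express a set of genes at that stage, and only some of these fade again in mature oligodendrocytes. Enpp6, a choline-specific glycerophosphodiesterase, and Bcas1, a brain-enriched protein of early myelinating cells, are used to find newly forming oligodendrocytes in tissue. Itpr2 is an inositol trisphosphate receptor that releases calcium from the endoplasmic reticulum, Fyn is a Src family kinase that relays axonal contact to the cytoskeleton and to local translation of myelin basic protein, Tns3 is a tensin of adhesion sites, and Sirt2 is an NAD-dependent deacetylase that acts on tubulin.

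The members lie on 6 chromosomes in GRCm38 (GENCODE M21). Enpp6 (ENSMUSG00000038173) spans chr8:46986887-47096762 on the plus strand, and Bcas1 (ENSMUSG00000013523) spans chr2:170346991-170427845 on the minus strand. Itpr2 (ENSMUSG00000030287) spans chr6:146108299-146502223 on the minus strand, Fyn (ENSMUSG00000019843) chr10:39368855-39565381 on the plus strand, Tns3 (ENSMUSG00000020422) chr11:8431652-8664535 on the minus strand, and Sirt2 (ENSMUSG00000015149) chr7:28766735-28788661 on the plus strand. Antisense genes share 12.6% of the exonic bases of Bcas1 (Bcas1os1 and Bcas1os2) and 0.834% of those of Sirt2 (Nfkbib). Bcas1os1 reached at most 3.80 TPM in Ctr and Bcas1os2 0.553 TPM, against a mean of 170 TPM for Bcas1. Whether the counting used strand is not given in the sources used here.

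The sequences just before the start sites are shown because most members fell together under IFNg. RefSeq (GRCm38.p6) held a window for 5 members, while Bcas1 is named only. Each line gives the part of the 250 bases before the RefSeq start that lies outside annotated exons, 5′ to 3′ on the gene's strand, with CpG dinucleotides in capitals. The lines are chr8:46986637-46986886 (plus) for Enpp6, chr6:146502224-146502473 (minus) for Itpr2, chr10:39369549-39369763 (plus) for Fyn, chr11:8664536-8664785 (minus) for Tns3, and chr7:28766641-28766734 (plus) for Sirt2.
Enpp6: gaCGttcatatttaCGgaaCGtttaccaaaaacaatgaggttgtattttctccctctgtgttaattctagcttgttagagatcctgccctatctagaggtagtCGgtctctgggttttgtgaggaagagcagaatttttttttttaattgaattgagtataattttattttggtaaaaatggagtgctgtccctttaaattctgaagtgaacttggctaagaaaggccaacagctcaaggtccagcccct
Itpr2: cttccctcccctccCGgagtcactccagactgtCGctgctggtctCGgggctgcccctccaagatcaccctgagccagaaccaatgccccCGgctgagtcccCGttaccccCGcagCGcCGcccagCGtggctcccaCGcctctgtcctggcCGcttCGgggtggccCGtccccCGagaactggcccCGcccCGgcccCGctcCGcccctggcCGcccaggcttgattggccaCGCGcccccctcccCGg
Fyn: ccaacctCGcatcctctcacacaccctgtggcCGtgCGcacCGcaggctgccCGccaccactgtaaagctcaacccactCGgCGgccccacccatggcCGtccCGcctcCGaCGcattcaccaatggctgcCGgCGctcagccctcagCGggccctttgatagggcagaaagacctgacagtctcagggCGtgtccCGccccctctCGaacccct
Tns3: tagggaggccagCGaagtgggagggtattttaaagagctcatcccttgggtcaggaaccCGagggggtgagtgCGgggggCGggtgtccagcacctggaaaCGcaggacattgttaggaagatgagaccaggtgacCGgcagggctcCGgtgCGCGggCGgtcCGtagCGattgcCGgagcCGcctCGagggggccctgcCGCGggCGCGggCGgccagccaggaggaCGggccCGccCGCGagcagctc
Sirt2: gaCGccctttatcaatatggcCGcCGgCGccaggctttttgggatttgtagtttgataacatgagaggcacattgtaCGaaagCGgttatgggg

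The Enpp6 window is poor in CpG, with 4 in its 250 bases and 38.4% G and C. The full windows of Itpr2, Fyn and Tns3 hold 22, 21 and 24 CpG at 74.4%, 67.2% and 69.6% G and C, and that of Sirt2, which runs into the first exon of the divergent gene Nfkbib, holds 13 at 50%. Over all 32851 RefSeq windows the median was 6 CpG and 52.4% G and C. Motifs were searched on both strands of the full windows. The STAT element GAS (TTCNNNGAA) was in 0 of the 5 windows and in 7.02% of all 32851, and the interferon-stimulated response element core (ISRE core) was in 0 of 5 and 2.98%. Also in 0 of 5 windows were the glucocorticoid response element half-site, spelled AGAACA, which 16.1% of all windows hold, and a SOX site. The letters of the latter are ACAAAG, and they stand in 16.5% of all windows. The E-box searched for was CAGCTG, found in 0 of 5 windows and in 13% of all. TATA, as TATAAA, was in 0 of 5 and in 12.4%. The counts of CpG were added after the sequences were seen.

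Levels between genes are compared per length, as TPM. In untreated OPCs Bcas1 averaged 170 TPM ± 124 (SD, n = 4) and Fyn 156 ± 29.6, followed by Sirt2 at 88.9 ± 57.8, Tns3 at 42.6 ± 13, Itpr2 at 24.3 ± 9.33 and Enpp6 at 4.56 ± 5.07. The neighbours in this order overlap between libraries for Bcas1 and Fyn, Fyn and Sirt2, Sirt2 and Tns3, and Tns3 and Itpr2, while the highest Enpp6 library (11.4 TPM) lies under the lowest Itpr2 library (13.3 TPM). In IFNg the means were 136 TPM for Fyn, 80.3 for Bcas1, 37.5 for Sirt2, 26.1 for Tns3, 12.5 for Itpr2 and 0.417 for Enpp6. Mature myelin genes were low: Mog, Mobp, Mal, Opalin and Ermn averaged under 1 TPM in all 3 groups, while Cnp averaged 123 TPM in Ctr.

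IFNg lowered most members. Counts divided by DESeq2's size factors (normalised counts) were lower in IFNg than in Ctr of the same replicate number in 4 of 4 numbers for each of the 6 members, where 23.4% of all tested genes were lower in all 4. On deposited TPM this held for 3 of 6 members (Bcas1, Itpr2 and Sirt2), against 8.73% of all tested genes. By that measure IFNg was above Ctr for Fyn in replicates 1 (117 and 118 TPM in Ctr and IFNg) and 2 (148 and 157), for Tns3 in replicate 1 (25.4 and 25.6) and for Enpp6 in replicate 1 (0.143 and 0.170). DESeq2's Wald test with the replicate number as a block called 5 of 6 members lower at an adjusted p under 0.05, against 14.1% of all tested genes called lower. The exception was Enpp6, which edgeR's quasi-likelihood test with the same block did call, making 6 of 6 against a background of 15.3%. The members and the block were chosen with earlier results of these data known, so these shares are a description and no independent support. The median log2 fold change of the members was -1.01, and that of all tested genes was -0.01. Every member overlapped between the Ctr and IFNg libraries, so 0 of 6 were separated, where 5.66% of all tested genes had each IFNg library below each Ctr library. A bulk measurement cannot tell fewer cells of a type from less RNA per cell.

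**Figure D1:**
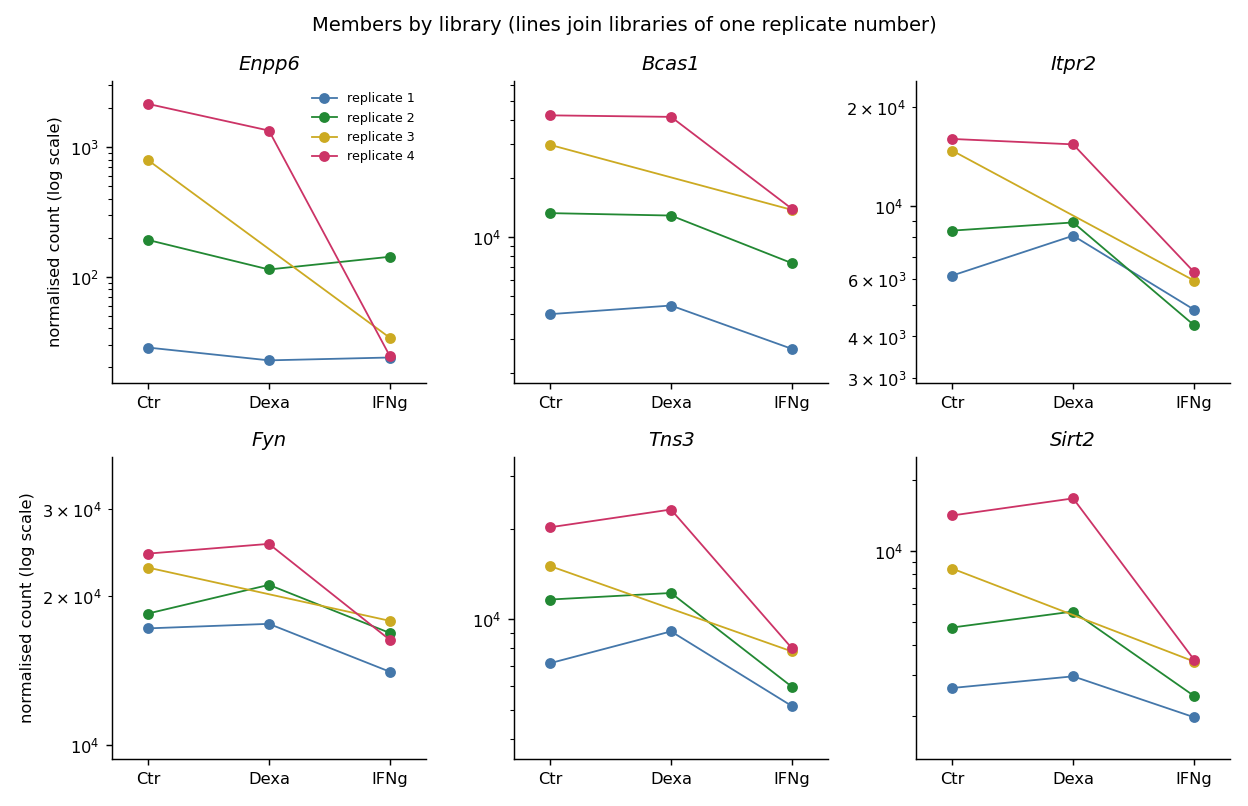
Normalised counts (log axes, a different range in each panel) of the 6 members in Ctr, Dexa and IFNg, 1 point a library, with lines joining the libraries of a replicate number. Ctr levels spread widely, from 28.46 to 2147 for Enpp6, and lie closer together in IFNg for all 6 members.

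Enpp6, the lowest of the members in level, had normalised counts of 28.46, 192.1, 792.1 and 2147 in Ctr replicates 1, 2, 3 and 4. The IFNg libraries of the same numbers had 23.85, 142.5, 33.80 and 24.39. Replicates 3 and 4 of Ctr were thus high and their IFNg partners low, while replicates 1 and 2 differed little. The log2 ratios of IFNg to Ctr were -0.25, -0.43, -4.51 and -6.40 for replicates 1 to 4, and the fitted log2 fold change was -2.20 (SE 1.04, DESeq2 adjusted p = 0.100; edgeR adjusted p = 0.0335). In 3 of the 4 IFNg libraries the value rests on 19 to 29 estimated reads, where counting error is large. Leaving out IFNg replicate 1, IFNg replicate 2, Dexa replicate 4 or all libraries of replicate 1 brought the DESeq2 adjusted p under the threshold (0.0230, 0.0207, 0.0304 and 0.0471), with log2 fold changes of -3.17, -3.27, -2.82 and -3.25, and leaving out Ctr replicate 3 gave -1.36 with an adjusted p of 0.492.

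Bcas1, the most abundant member in Ctr, had normalised counts of 4012, 13239, 29666 and 42039 in Ctr replicates 1 to 4. IFNg libraries had 2661, 7325, 13749 and 13915. Each IFNg library lay below its own Ctr partner, and replicate 1 was the lowest in both groups. The fitted log2 fold change was -1.03 (SE 0.13, DESeq2 adjusted p = 1.06e-13), which is 49.1% of the Ctr level with a 95% interval of 0.410 to 0.586 as a fold. Without the block the same test gave an adjusted p of 0.335, and Ctr libraries alone ranged 10.5-fold.

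Itpr2, the calcium channel, had normalised counts of 6126, 8392, 14700 and 15946 in Ctr replicates 1 to 4 and of 4824, 4325, 5913 and 6274 in IFNg. IFNg replicate 4, the highest of its group, stood just above Ctr replicate 1, the lowest of Ctr. The log2 fold change was -0.99 (SE 0.13, DESeq2 adjusted p = 1.09e-12), and the log2 ratio went from -0.34 in replicate 1 to -1.35 in replicate 4. Without the block DESeq2 still called it (adjusted p = 0.00985) and edgeR did not (adjusted p = 0.0633).

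Tns3, the tensin, stood at 7138, 11641, 15059 and 20282 normalised counts in Ctr and at 5132, 5951, 7810 and 7998 in IFNg. All IFNg libraries but replicates 3 and 4 were below the lowest Ctr library. The log2 fold change was -0.93 (SE 0.12, DESeq2 adjusted p = 4.67e-14), or 52.6% of the Ctr level.

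Sirt2, the deacetylase, had 2637, 4751, 8435 and 14144 normalised counts in Ctr and 1983, 2439, 3412 and 3470 in IFNg. Ctr replicate 4 was the highest library and its IFNg partner came to 24.5% of it, while in replicate 1 the IFNg library came to 75.2% of Ctr. The log2 fold change was -1.13 (SE 0.30, DESeq2 adjusted p = 0.000943), and the call was lost without the block (adjusted p = 0.0784).

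Fyn, the kinase, moved least of the called members. It had 17209, 18437, 22836 and 24370 normalised counts in Ctr and 14062, 16842, 17820 and 16308 in IFNg, so that IFNg replicate 3 lay above Ctr replicate 1. The log2 fold change was -0.34 (SE 0.08, DESeq2 adjusted p = 0.000197), or 79.1% of the Ctr level. On log2(TPM + 1) limma with the block gave -0.18 and did not call it (adjusted p = 0.222), and DESeq2 without the block did not either (adjusted p = 0.160).

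**Figure D2:**
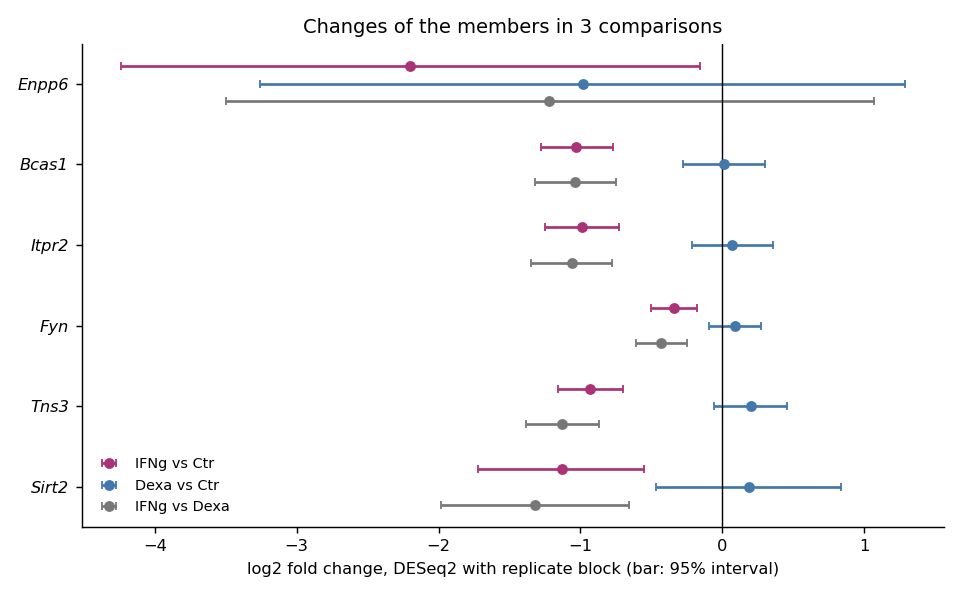
DESeq2 log2 fold changes of the members with the replicate block (points) and their 95% intervals (bars) in IFNg vs Ctr, Dexa vs Ctr and IFNg vs Dexa. Bcas1, Itpr2, Fyn, Tns3 and Sirt2 lie below 0 in both IFNg comparisons, and the bars of all 6 members cross 0 in Dexa vs Ctr.

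Several of these calls were lost without the replicate block. DESeq2 without it called 3 of 6 members lower in IFNg than in Ctr (Enpp6, Itpr2 and Tns3), against 4.83% of all tested genes. EdgeR without it called 0 of 6 against 2.38%. With the replicate number in the model, the spread between numbers is taken out of the error. Over all genes DESeq2 with the block called 2717 genes higher and 2521 lower in IFNg than in Ctr, whereas limma on log2(TPM + 1) called 3606 higher and 848 lower. The median of all genes on that scale was 0.09 for IFNg vs Ctr and 0.10 for IFNg vs Dexa. For IFNg vs Dexa the calls were 2905 higher and 2757 lower with DESeq2 and 4003 and 1016 with limma, and for Dexa vs Ctr 368 and 92 against 109 and 8. The 6 members stayed below 0 in IFNg vs Ctr under every alternative run.

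Replicate numbers differed in all members. A test of the replicate term with the group in the model passed for 6 of 6 members by DESeq2's likelihood ratio test, where 44.5% of all tested genes passed, and for 6 of 6 by edgeR, where 46.2% passed. The adjusted p by DESeq2 ran from 2.45e-79 for Bcas1 to 0.0459 for Enpp6. In Ctr the highest library exceeded the lowest 75.4-fold for Enpp6, 10.5-fold for Bcas1, 5.36-fold for Sirt2, 2.84-fold for Tns3, 2.60-fold for Itpr2 and 1.42-fold for Fyn, with replicate 1 lowest and replicate 4 highest for all 6. Within IFNg the same ratios were 5.98, 5.23, 1.75, 1.56, 1.45 and 1.27. Summed over the 18 other committed and newly formed oligodendrocyte genes, TPM was 142 in Ctr replicate 1 and 822 in Ctr replicate 4. Gpr17 made up most of this, at 51 and 572 TPM, and not every gene of the list rose. Cemip2 had 8.84 and 3.71 TPM and Frmd4a 7.91 and 5.64 in the same 2 libraries. The 8 astrocyte markers summed to 317 and 299 TPM in Ctr replicates 1 and 2 and to 149 and 209 in replicates 3 and 4. Replicates 3 and 4 share a prefix in their names and replicates 1 and 2 carry their own. The log2 ratios of IFNg to Ctr in replicates 1, 2, 3 and 4 were -0.59, -0.85, -1.11 and -1.60 for Bcas1 and -0.41, -0.96, -1.31 and -2.03 for Sirt2. For Itpr2 they were -0.34, -0.96, -1.31 and -1.35, for Tns3 -0.48, -0.97, -0.95 and -1.34, and for Fyn -0.29, -0.13, -0.36 and -0.58. The ratios of replicates 3 and 4 were further below 0 than those of the other numbers for Enpp6, Bcas1, Itpr2, Fyn and Sirt2, but not for Tns3, where replicates 2 and 3 were close. With 1 pair in each number, the difference between numbers in the response was not tested.

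**Figure D3:**
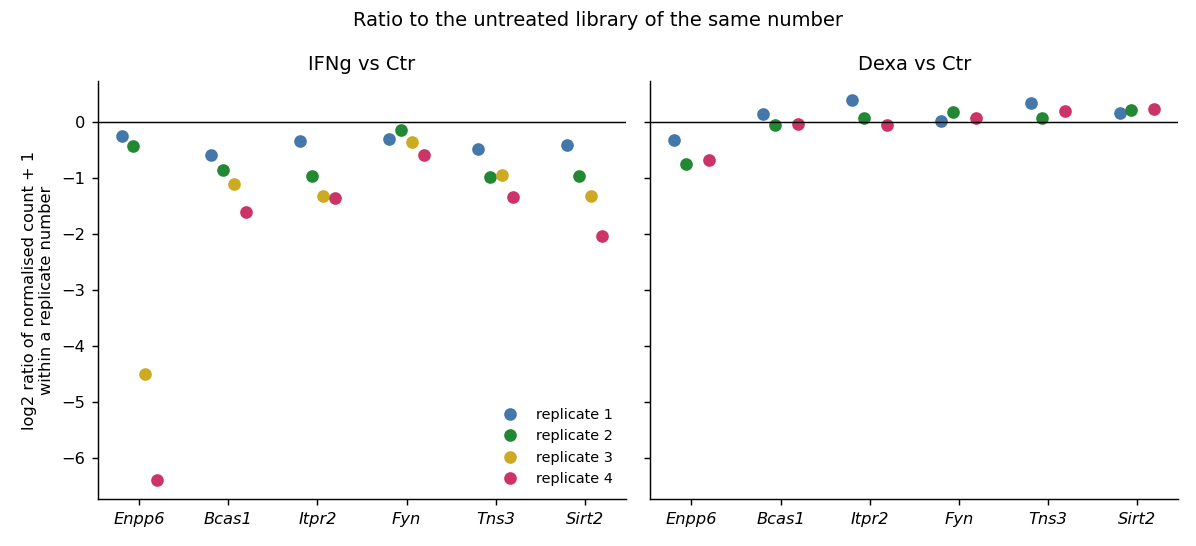
Log2 ratio of normalised count + 1 to the Ctr library of the same replicate number, for IFNg (left, 4 numbers) and Dexa (right, 3 numbers). All IFNg points lie below 0, with the widest spread for Enpp6 (-0.25 to -6.40), and the Dexa points of Bcas1, Itpr2, Fyn, Tns3 and Sirt2 lie between -0.05 and 0.40.

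Dexamethasone left no member past the threshold. DESeq2 with the block called 0 of 6 members against 2.57% of all tested genes, and edgeR called 0 of 6 against 1.57%. Limma on log2(TPM + 1) called 0 of 6, and 117 of all 17919 tested genes. At such low shares, 0 of 6 does not set the members apart from other genes. The 95% intervals of the log2 fold change were -0.28 to 0.30 for Bcas1, -0.21 to 0.36 for Itpr2, -0.09 to 0.27 for Fyn, -0.06 to 0.46 for Tns3, -0.47 to 0.84 for Sirt2 and -3.26 to 1.29 for Enpp6. The bounds leave room for modest changes in most members and for large ones in Enpp6. When Ctr and Dexa libraries were fitted alone, with 3 Dexa libraries, 3 of 6 members were called against 5.73% of all tested genes, Enpp6 lower (log2 fold change -0.68, DESeq2 adjusted p = 6.34e-05), Tns3 higher (0.20, adjusted p = 0.0153) and Sirt2 higher (0.21, adjusted p = 0.00304). Enpp6 had 22.67, 113.7 and 1337 normalised counts in Dexa replicates 1, 2 and 4, each below its Ctr partner. Sirt2 had 2954, 5553 and 16706, each above its Ctr partner. Dexa replicate 3, read for the members it lists whole, had 188 TPM of Fyn and 56.0 TPM of Tns3, beside 177 and 45.5 in Ctr replicate 3, and a fit over all 12 libraries and the genes listed whole gave log2 fold changes of 0.10 for Fyn and 0.23 for Tns3 (DESeq2 adjusted p = 0.701 and 0.421).

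Against Dexa, the IFNg libraries gave a like picture, with the IFNg libraries shared by both comparisons. DESeq2 with the block called 5 of 6 members lower (15.4% of all tested genes) and edgeR 5 of 6 (16.6%), Enpp6 being the exception in both. The log2 fold changes were -1.04 for Bcas1, -1.06 for Itpr2, -1.13 for Tns3, -1.32 for Sirt2 and -0.43 for Fyn. Without the block DESeq2 called Itpr2 and Tns3 alone of the members, against 5.43% of all tested genes, and limma on log2(TPM + 1) did not call Fyn (-0.24, adjusted p = 0.140). Itpr2 and Tns3 were separated, with every IFNg library below every Dexa library, as were 8.77% of all tested genes. Enpp6 had a log2 fold change of -1.22 (SE 1.17, DESeq2 adjusted p = 0.483). Its log2 ratios of IFNg to Dexa were 0.07, 0.32 and -5.72 in replicates 1, 2 and 4, so that replicate 4 alone was low.

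The patterns of the members over the 11 complete libraries, which share litters and treatments, were compared by the correlation of log2(normalised count + 1), as a description. Pearson's r between members ranged from 0.81 for Bcas1 and Itpr2 to 0.98 for Sirt2 and Tns3. Among 12155 genes with a mean of at least 100 normalised counts, many genes outside the set were nearer to a member than the other members were. The other members ranked from 724 to 1896 in likeness to Bcas1, from 52 to 362 to Enpp6, from 15 to 1017 to Itpr2, from 15 to 645 to Fyn, from 7 to 884 to Tns3 and from 4 to 382 to Sirt2. The nearest member to another was Tns3 for Sirt2, at rank 4 behind Gnptab (r = 0.986), Arsb (0.982) and Usp20 (0.982). Tns3 itself was most like Kazn (0.989), Herc2 (0.987) and Usp20 (0.986), Itpr2 was most like Slc24a3 (0.987), Ppp1r9b (0.986) and Herc2 (0.981), and Fyn was most like Galnt17 (0.983), Sobp (0.981) and Herpud2 (0.975). Bcas1 was nearest to Pde4d (0.993), Dusp15 (0.992) and Pde4dip (0.991). The genes nearest to Enpp6 were Slc26a2 (0.977), Tent4b (0.971) and Bmp4 (0.968), the last a secreted morphogen that belongs to the other committed oligodendrocyte genes.

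The other genes of the stage moved in part with the members. Of 18 other committed and newly formed oligodendrocyte genes, 17 were tested in IFNg vs Ctr. DESeq2 with the block called 10 lower and 2 higher with a median of -0.50. Over all 17919 tested genes, 14.1% were called lower and 2717 genes were called higher. Gpr17, a receptor of committed precursors, fell by 2.09 on the log2 scale (SE 0.14, adjusted p = 1.12e-45), and Mycl fell by 1.76. Neu4, a sialidase, fell by 1.43 and Bmp4 by 3.70 (SE 1.03, adjusted p = 0.00177). The 2 higher genes were Rras2 (0.30) and Enpp4 (0.35), named after their values were seen. In Dexa vs Ctr 1 of 17 was called, Cemip2, higher by 0.45 (adjusted p = 0.0280), also named after its value was seen. Of all tested genes 2.57% were called there.

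Genes of the stages before and after were measured beside these. Of 13 OPC genes, DESeq2 with the block called 9 lower and 0 higher in IFNg with a median of -0.48. Over all tested genes 14.1% were called lower. C1ql1 fell by 2.37, Lhfpl3 by 0.74, Pdgfra, the PDGF receptor that marks OPCs, by 0.61 (SE 0.14, adjusted p = 0.000103), and Cspg4, the proteoglycan NG2, by 0.60. EdgeR with the block called 8 of these 13 OPC genes lower, against 15.3% of all tested genes. In Dexa vs Ctr 2 of the 13 were called higher, Cspg4 (0.65, DESeq2 adjusted p = 1.02e-08) and Bcan (0.36, adjusted p = 0.00303), the second named after its value was seen. Of all tested genes 2.57% were called in either direction there. Of 13 mature myelinating genes, 10 were tested, with 2 called lower, Myrf (log2 fold change -1.63), the transcription factor of myelin genes, and Cnp (-0.65), and 1 higher, Aspa (1.12). Over all 17919 tested genes 2521 were called lower and 2717 higher, so these counts do not set the list apart. Aspa stayed low, at 0.348 TPM ± 0.460 (SD) in Ctr and 0.823 ± 1.00 in IFNg. Mature genes summed to 61.2 to 227 TPM in Ctr and 53.9 to 153 in IFNg. Cnp made up most of the Ctr sums, at 49.1 TPM in the lowest library and 178 in the highest.

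**Figure D4:**
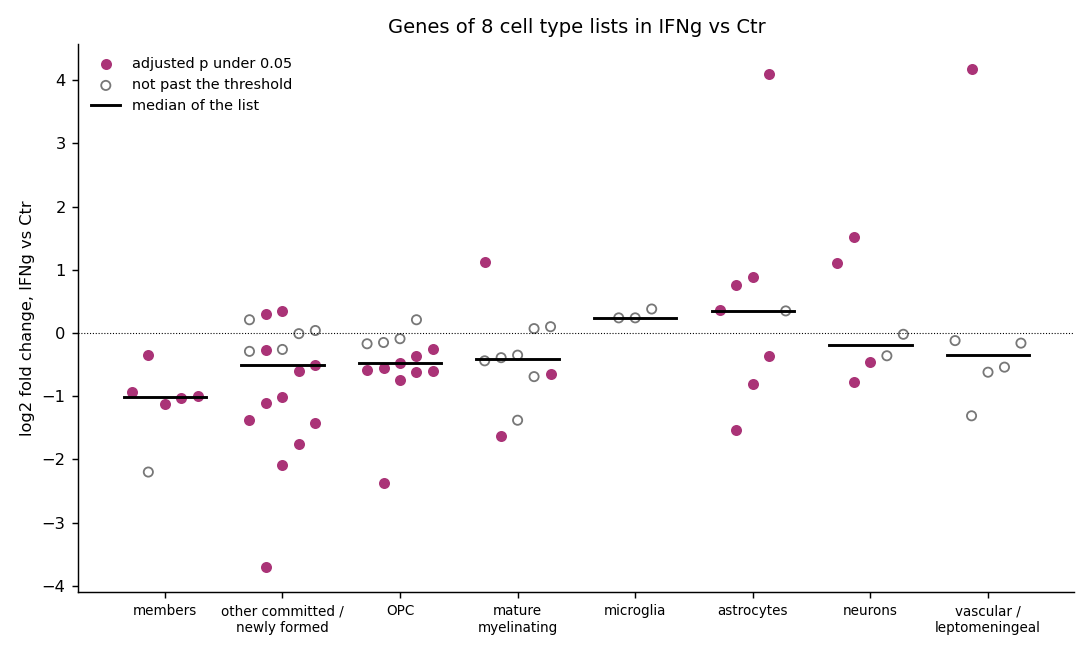
Log2 fold changes in IFNg vs Ctr (DESeq2 with the block) of the tested genes of 8 cell type lists, with filled points past the threshold, open points not, and a bar at the list's median. The members' median is -1.01, that of the other committed genes -0.50 and that of OPC genes -0.48, while microglial markers have no filled point.

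Markers of other cell types moved with the treatment as well. Of all 17919 tested genes, DESeq2 with the block called 2717 higher and 2521 lower in IFNg vs Ctr. Astrocyte markers (8 tested) had 4 called higher and 3 lower in IFNg. Gfap was up by 4.10 and S100b down, at a log2 fold change of -1.53, with Aldoc at 0.88 and Aqp4 at -0.81. Gfap stayed low, at 0.154 TPM in Ctr and 2.50 in IFNg on average. The 8 markers summed to 149 to 317 TPM in Ctr, 308 to 477 in Dexa and 269 to 435 in IFNg. Neuronal markers (6 of 7 tested) had 2 higher, Tubb3 (1.52) and Syt1 (1.11), and 2 lower, Dcx (-0.78) and Snap25 (-0.46), with sums of 140 to 276 TPM in Ctr and 215 to 265 in IFNg. Vascular and leptomeningeal markers had 1 of 6 tested called, Lum, higher by 4.18 (edgeR also called 1 lower). At 1 of 6, the list did not stand apart from all tested genes. Lum averaged 7.388 normalised counts in Ctr, 4.612 in Dexa and 109.9 in IFNg, so it may have passed the low-count filter through the IFNg libraries alone. The list summed to 0.422 to 1.10 TPM in Ctr and 0.566 to 1.93 in IFNg. Of the microglial markers 3 of 11 passed the filter and 0 were called by DESeq2 or by edgeR with the block, with 0 at an unadjusted DESeq2 p under 0.05. The part of other cell types in the members' changes was not tested.

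Related genes show whether a whole family moved with its member. Among IP3 receptors, Itpr2 made up 84.4% ± 7.06 (SD, n = 4) of the family's TPM in Ctr and 54.7% ± 11.7 in IFNg. Itpr1 rose with a log2 fold change of 1.35 (SE 0.08, DESeq2 adjusted p = 3.35e-57), from 3.92 to 10.8 TPM on average, while Itpr2 went from 24.3 to 12.5. Itpr3 averaged 0.0309 TPM in Ctr. Of these, Itpr1 was also called higher in Dexa by DESeq2 (0.34, adjusted p = 0.0142).

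Of 4 tensins, 3 were tested and all 3 were called lower by DESeq2 with the block, against 14.1% of all tested genes. Tns2 had a log2 fold change of -1.97 and Tns1 of -0.65 (DESeq2 adjusted p = 3.42e-35 and 0.000411), with Tns3 at 91.5% of the family's TPM in Ctr and 94.2% in IFNg. Tns4 was not tested, with a mean of 0.00819 TPM in Ctr. In TPM, Tns1 was not lower in IFNg in replicates 1 (1.27 in Ctr and 1.34 in IFNg) and 2 (1.26 and 1.27). Among the 7 sirtuins tested, Sirt2 alone was called by DESeq2 with the block, near the 14.1% of all tested genes called lower. EdgeR also called Sirt4 (-0.30, adjusted p = 0.0407), against 15.3% of all tested genes. The other 6 sirtuins averaged 3.84 to 9.82 TPM in Ctr, against 88.9 for Sirt2. Sirt2's share of the family was 64.8% ± 16.7 in Ctr and 48.0% ± 7.08 in IFNg, which overlap.

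**Figure D5:**
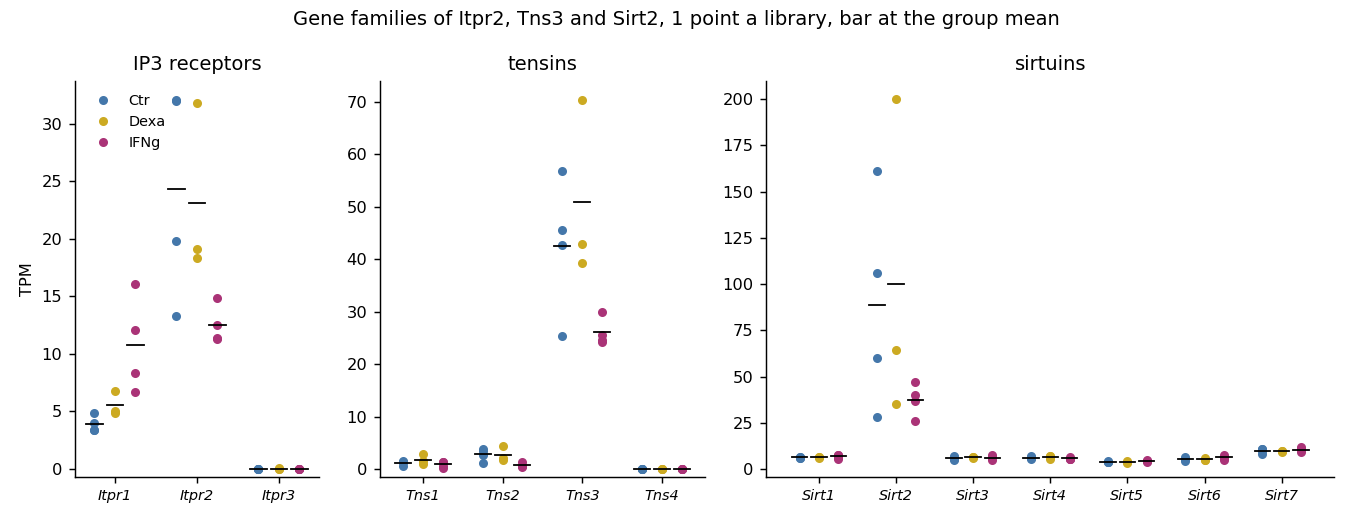
TPM of the IP3 receptors, tensins and sirtuins, 1 point a complete library, with a bar at each group's mean. Itpr1 is higher and Itpr2 lower in IFNg, and Sirt2 is the sirtuin with the widest spread, from 28.3 to 161 TPM in Ctr.

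Fyn was the main Src family kinase, at 74.8% ± 6.02 of the family's TPM in Ctr and 72.4% ± 3.28 in IFNg. Of 8 family members 5 were tested, with Fyn, Yes1 (-0.32) and Src (-0.22) called lower and Lck, the T cell kinase, called higher at 3.29. Of all 17919 tested genes 2521 were called lower and 2717 higher. Lck went from 0.169 to 1.62 TPM on average. It averaged 8.720 normalised counts in Ctr, 7.877 in Dexa and 83.05 in IFNg, so it may have passed the low-count filter through the IFNg libraries alone. Of 13 genes that work with Fyn in oligodendrocytes, DESeq2 with the block called 7 lower and 1 higher in IFNg (median -0.24). Over all tested genes 14.1% were called lower. Ncam1, an adhesion molecule, fell by 0.82, Cdk5, a kinase, by 0.66, Itga6, the laminin-binding integrin subunit, by 0.55 and Pag1, a membrane adaptor for Csk, by 0.53. The gene called higher was Ptpra (0.21), a phosphatase that acts on Src kinases, named after its value was seen. Among the Enpp genes 6 of 7 were tested, with Enpp2 (0.49, adjusted p = 5.63e-07), the enzyme autotaxin, and Enpp4 (0.35) called higher. Over all 17919 tested genes 2717 were called higher. Enpp2 averaged 66.9 TPM in Ctr and 105 in IFNg.

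Transcript shares are the part of a gene's estimated reads assigned to each annotated transcript, and they are model estimates. For Bcas1, the 633-residue transcript Bcas1-201 held 73.4% ± 3.75 (SD, n = 4) of reads in Ctr and 64.0% ± 7.83 in IFNg. The 577-residue Bcas1-202 held 9.7%, 6.7%, 8.7% and 1.9% in Ctr replicates 1 to 4 and 21.2%, 15.2%, 13.9% and 4.7% in IFNg, higher in IFNg in 4 of 4 numbers, although the groups overlap. The Itpr2 transcripts Itpr2-201 and Itpr2-202 held 48.8% and 48.6% in Ctr and 49.9% and 48.5% in IFNg. For Fyn the 537-residue Fyn-202 held 59.1% in Ctr and 59.2% in IFNg. Fyn-205 (534 residues) had 24.2% in both, ranging from 15.8% to 34.6% between Ctr libraries. Sirt2-202 (352 residues) held 74.2% in Ctr and 75.8% in IFNg, and Tns3-201 held 96.3% and 95.3%. The shares were not tested.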

How the data were processed

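The authors trimmed reads, aligned with STAR and quantified transcripts with Salmon 0.8.2, and the deposited tables give an estimated (expected) count and TPM per transcript. The authors' 3 DESeq2 tables, which hold a mean, fold change, error and p-values, were not used. Estimated counts and deposited TPM were summed per gene (GENCODE M21, GRCm38, all 141862 transcripts matched) and counts rounded. A gene was tested if 4 or more of the 11 complete libraries had 10 or more counts.

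DESeq2 1.42.0 (R 4.3.3) fitted all 3 groups with the replicate number as a block. Of the 17919 tested genes, some of low count, such as Mog in Dexa vs Ctr, got no adjusted p from DESeq2. These counted as not called, and p-values of the rest were Benjamini-Hochberg adjusted. The block was chosen because the rule that defines the genes pairs libraries by replicate; the study's methods name DESeq2 and no covariate. Same-numbered libraries deviated together from their group means (r 0.404 to 0.722 over 10 pairs, -0.614 to 0.495 over 30 others). The ranges overlap. Deviations from a group mean sum to 0, so where same-numbered libraries go together the other r are pulled down. Alternatives were edgeR 4.0.16, limma 3.58.1, other filters and scalings, and leaving out libraries. Scripts were tested on simulated data. Whether replicates beyond litters are independent is not given. With the block, p-values are set against the spread of these libraries that is left after replicate numbers are taken out.

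Named from other lists were up to 4 genes called in IFNg vs Ctr with the largest fold changes, and for likeness the 3 most correlated genes. Members, lists and the block were chosen with earlier results of these data known. Counting intervals do not separate PCR copies from molecules.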

Additional observations from a re-analysis of the deposited data

Results flagged for a closer look

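Enpp6 in IFNg replicate 2 stood apart from the other IFNg libraries, with 142.5 normalised counts against 23.85 to 33.80 in the other 3 (gap over range 0.916, above Dixon's 95% critical value). It was 1 flag in 12 groups of 4 libraries, and chance flags about 1 in 20 groups. Its Ctr partner had 192.1 normalised counts, and leaving out this library gave a log2 fold change of -3.27 for Enpp6 in IFNg vs Ctr (DESeq2 adjusted p = 0.0207).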

How the results depend on the processing

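The calls of Bcas1, Itpr2, Fyn, Tns3 and Sirt2 in IFNg vs Ctr and in IFNg vs Dexa held in all 15 fits that left out libraries. Without the replicate block, members called numbered 3 in IFNg vs Ctr and 2 in IFNg vs Dexa by DESeq2, and 0 and 0 by edgeR. On deposited TPM, an alternative added after seeing the data, 3 members instead of 6 were lower in IFNg than in Ctr in all 4 replicate numbers. Fitting only the 2 groups compared gave 3 members called in Dexa vs Ctr. Members called with single libraries or numbers left out numbered 5 to 6, 0 and 5 in IFNg vs Ctr, Dexa vs Ctr and IFNg vs Dexa. Over all genes the counts in IFNg vs Ctr, Dexa vs Ctr and IFNg vs Dexa were 5238, 460 and 5662 in the reported fit, 2302, 98 and 2345 without the replicate block, 1513, 22 and 1571 by edgeR without it, and 1976, 227 and 2343 over the genes that all 12 tables list whole, where fewer genes were tested. For Dexa vs Ctr edgeR with the block called 282, limma 117 and the 2 groups alone 1026, and for IFNg vs Dexa the 2 groups alone called 3563. Leaving out libraries or numbers gave 3552 to 5100, 177 to 542 and 3488 to 5300. The count for Dexa vs Ctr fell by over 1.5 times without Ctr replicate 1 (299), 2 (267) or 4 (277), Dexa replicate 1 (225) or 2 (190), or numbers 1 (260) or 2 (177), and that for IFNg vs Dexa without Dexa replicate 2 (3724) or number 2 (3488). Enpp6 in IFNg vs Ctr ranged from -3.29 to -1.36 over these fits, and its adjusted p from 0.0207 to 0.492. The causes were not tested. No called gene of the lists changed sign on log2(TPM + 1), an alternative added after seeing the data, as was the test of the replicate term. The share of Bcas1-208 moved from 19.1% of reads to 23.0% of TPM in Ctr and from 21.7% to 25.8% in IFNg.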
